A study of Mus musculus with 8 samples.

Results

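The genes described here are 10 well-known members of the fatty acid and fasting response that PPAR receptors drive, and each was found by its symbol among the 21878 symbols of the count table. RNA was sequenced from the peripheral blood of female wild-type (WT) C57BL/6 mice aged 6 to 8 weeks. In the stress group (n = 4), mice were restrained for 6 hours in a ventilated tube, and in the control group (n = 4), littermates stayed in their cage. Food and water were withheld from both groups during these hours, so the comparison is between restraint and no restraint at equal food deprivation, and no fed group is among the samples. The labels number the replicates of each group 1 to 4, and p-values measure the spread between these samples.

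PPARalpha, PPARdelta and PPARgamma are nuclear receptors that bind fatty acids and sit on DNA as a pair with RXR. When fatty acids rise in the blood during fasting, they turn on genes that bring fatty acids into the cell, carry them into mitochondria as carnitine esters, oxidise them and store the surplus in lipid droplets. In liver, heart and muscle these genes are known as a fasting signature, while in blood cells Plin2, Cpt1a and Pdk4 are known targets of circulating fatty acids. The members cover uptake (Cd36), storage (Plin2), a secreted lipase inhibitor (Angptl4), the carnitine shuttle (Cpt1a, Slc25a20), the release of fatty acids from CoA (Acot1, Acot2), mitochondrial oxidation (Acadm, Acadvl) and the switch away from glucose (Pdk4).

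A few of these genes changed in stressed blood. Acot1, a fatty acyl-CoA thioesterase, rose 5.93-fold and Plin2, a lipid droplet protein, rose 2.27-fold in the stress group. Slc25a20, the mitochondrial carnitine carrier, rose 1.40-fold on the scale used here and lay below its control level when libraries were scaled by total counts alone. No other member passed an adjusted p below 0.05 on the scale used here, and Pdk4, a standard fasting gene, was almost without counts in either group. Of the 9 members with enough counts to test, 2 were called higher (adjusted p below 0.01 and a log2 fold change above 1), against 1.69% of all 11718 genes tested, and 0 were called lower, against 0.0171%. At an adjusted p below 0.05 with no fold threshold, 3 members were higher, against 10.4% of all genes, and 0 were lower, against 3.69%. At an unadjusted p below 0.05, edgeR gave 4 members higher and 1 lower, against 18.2% and 13% of all genes, and DESeq2 and limma-voom each gave 4 and 0. In 4 members all stress samples exceeded all controls, a pattern that 11.1% of all genes tested showed, and in 0 members all of them lay below, which 9.88% of genes showed. The log2 fold change was above 0 in 8 members and below 0 in 1, with a median of 0.48 beside -0.03 over all genes tested.

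Levels are given as CPM, a gene's counts brought to a common library size that was scaled by TMM, a method that takes most genes as unchanged. Depth and composition differed between the groups, with totals of 31471145 to 39014775 counts in control samples against 25978683 to 29655725 in stress samples, and with haemoglobin transcripts taking 51.9% to 63.8% of control counts and 61.2% to 75.5% of stress counts. On a scale of total counts alone, the median of all genes shifted to -0.82, and changes on that scale are read against this shift. On that scale 2 of the 9 tested members lay above 0 (median -0.32): Acot1, which was still called (log2 fold change 1.88, edgeR, adjusted p = 0.00716), and Plin2, which was not (0.47, edgeR, adjusted p = 0.231). Acot2 then passed an adjusted p below 0.05 as lower (-1.19, edgeR, adjusted p = 0.0129). Cpt1a, Angptl4, Slc25a20, Acadm, Acadvl and Cd36 changed sign on that scale and passed no threshold there. In whole blood, a change in the number of cells of a type and a change in RNA per cell cannot be told apart.

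**Figure D1:**
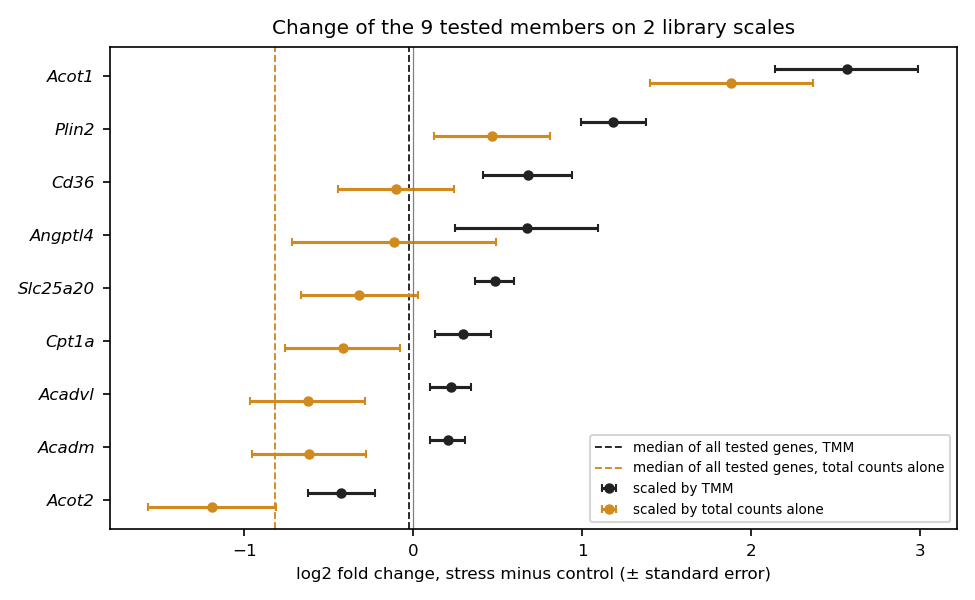
Log2 fold change (x axis, stress minus control, bars ± standard error) of the 9 tested members, scaled by TMM (black) and by total counts alone (orange), with dashed lines at the median of all genes tested on each scale. On the TMM scale Acot1 (2.57) and Plin2 (1.18) stand to the right of the other members and Acot2 (-0.43) alone lies below 0, while on total counts only Acot1 and Plin2 stay above 0.

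To compare levels between members, CPM was divided by the length of each gene's exons in kilobases. In the control group Cd36 was highest at 6.12 ± 2.05 CPM per kb (SD, n = 4), followed by Acadvl at 4.92 ± 0.478 and Cpt1a at 4.79 ± 0.453, and the ranges of neighbours among these 3 overlapped. Acadm came next at 3.06 ± 0.0913 CPM per kb, apart from its neighbours on both sides. Acot2 at 1.69 ± 0.238, Plin2 at 1.45 ± 0.220 and Slc25a20 at 1.27 ± 0.0371 CPM per kb followed, with overlapping ranges between neighbours. Acot1 at 0.101 ± 0.0452 and Angptl4 at 0.0898 ± 0.0211 CPM per kb also overlapped each other and lay well below those, and Pdk4 was last. In the stress group Cd36 was still first at 9.79 ± 3.17 CPM per kb, Plin2 moved to position 5 at 3.26 ± 0.907, Acot2 moved to position 7 at 1.25 ± 0.245, and Acot1 stayed at position 8 at 0.588 ± 0.280.

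**Figure D2:**
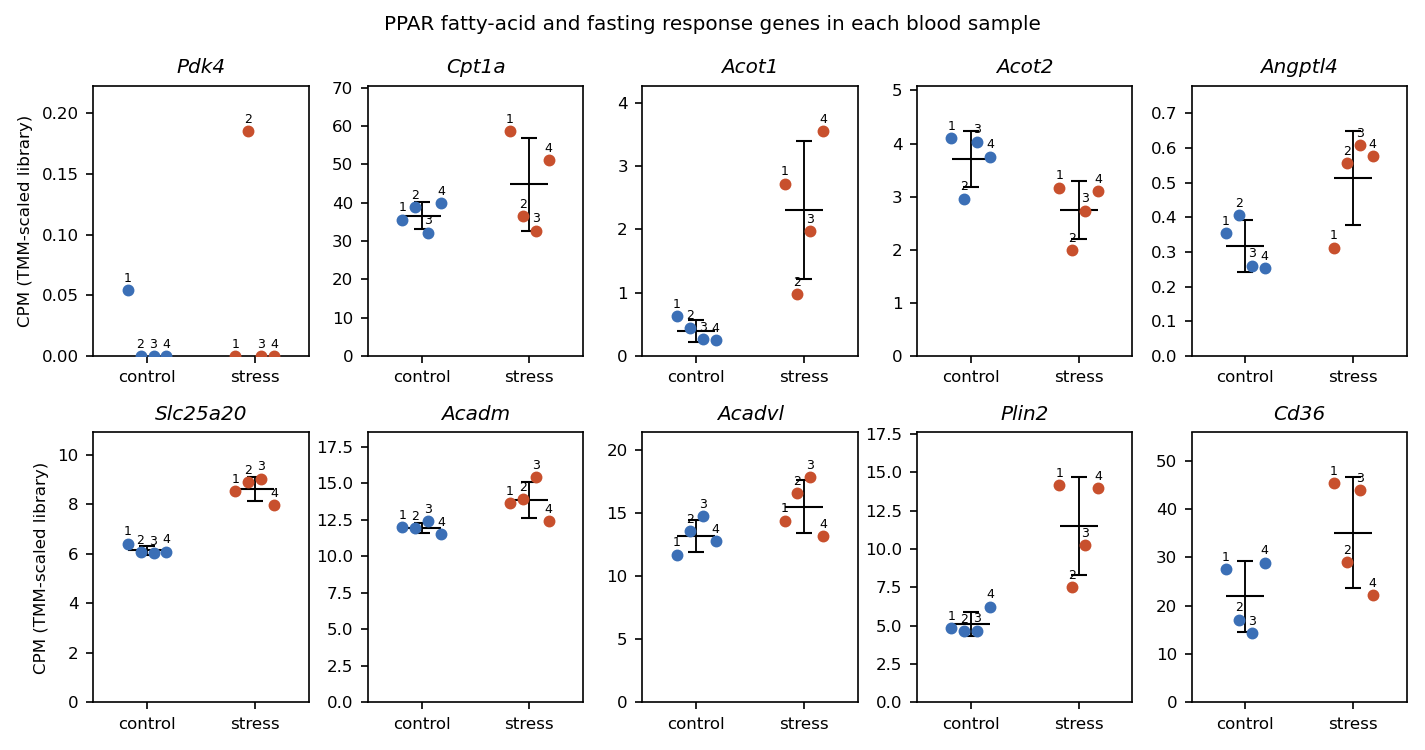
CPM of the 10 members (y axes, each from 0) in the 4 control (blue) and 4 stress (red) samples, with replicate numbers beside the points and bars at the mean ± SD (none for Pdk4). Control and stress points do not overlap for Acot1, Slc25a20, Acadm and Plin2, although for Acadm the nearest points of the groups all but touch.

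Acot1 is the cytosolic and Acot2 the mitochondrial member of a pair of acyl-CoA thioesterases, enzymes that split fatty acyl-CoA into a free fatty acid and CoA. In liver Acot1 is a classic fasting and PPARalpha target. The genes lie next to each other on the plus strand of chromosome 12 (GRCm38, GENCODE M21), Acot2 at chr12:83987861-83993873 and Acot1 at chr12:84009490-84018371, and their coding exons are nearly alike. Exon 2 is printed for both because it shows how few bases tell their reads apart: it is 203 bases long and differs at 4 bases (98.0% identical), and capitals mark those bases. The sequences are from GRCm38, chr12:84014379-84014581 for Acot1 and chr12:83990494-83990696 for Acot2.
Acot1: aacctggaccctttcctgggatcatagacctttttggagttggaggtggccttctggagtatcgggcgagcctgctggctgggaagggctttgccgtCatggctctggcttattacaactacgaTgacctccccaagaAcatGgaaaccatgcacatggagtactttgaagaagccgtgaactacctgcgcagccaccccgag
Acot2: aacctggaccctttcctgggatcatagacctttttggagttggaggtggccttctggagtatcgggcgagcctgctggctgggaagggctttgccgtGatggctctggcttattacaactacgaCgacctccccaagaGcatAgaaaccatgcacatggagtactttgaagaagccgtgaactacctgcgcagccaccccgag
The longest identical run in this exon is 97 bases. Over all exons, 11.2% of the 75-base windows of Acot1 occur in Acot2 as well, and 20.5% of those of Acot2 occur in Acot1, so the assignment of part of their reads is uncertain.

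Acot1 was measured at 0.625, 0.445, 0.260 and 0.252 CPM in control samples 1 to 4 and at 2.72, 0.974, 1.97 and 3.55 CPM in stress samples 1 to 4. Every stress sample was higher than every control sample, with sample 2 the lowest of the stress group and sample 4 the highest. These values rest on few reads, 8 to 23 counts in a control sample and 21 to 111 in a stress sample. The mean rose from 0.396 ± 0.177 to 2.31 ± 1.10 CPM (SD, n = 4), which is a log2 fold change of 2.57 ± 0.42 (SE; edgeR, adjusted p = 0.00234). Without control replicate 2, the adjusted p was 0.0105 in edgeR, just past the threshold of a call. On total counts alone the groups overlapped, since stress sample 2 at 0.708 CPM then lay below control sample 1 at 0.731 CPM.

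Acot2 did not follow. It was measured at 4.10, 2.96, 4.03 and 3.75 CPM in the control samples and at 3.17, 1.99, 2.73 and 3.11 CPM in the stress samples, and the groups overlapped through control sample 2. Its log2 fold change was -0.43 ± 0.20 (SE; 95% interval -0.85 to -0.0028; edgeR, adjusted p = 0.158), which passed no threshold.

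The split of counts between this gene pair does not depend on how the libraries are scaled, and it was looked at after the values of both genes had been seen. Acot1 took 13.2% (23 of 174), 13.1% (23 of 176), 6.06% (18 of 297) and 6.30% (8 of 127) of the summed Acot1 and Acot2 counts in control samples 1 to 4. In the stress samples it took 46.2% (61 of 132), 32.8% (21 of 64), 41.9% (26 of 62) and 53.4% (111 of 208). The groups did not overlap, and the nearest samples had exact Clopper-Pearson 95% intervals of 8.57% to 19.2% (control sample 1) and 21.6% to 45.7% (stress sample 2), which cover counting error only. The mean share was 9.66% ± 4.02 in controls and 43.6% ± 8.59 after stress (SD, n = 4), 33.9 percentage points higher, which is given without a test because the measure was formed after the genes were seen to part. The summed level of both genes was 4.11 ± 0.554 CPM in controls and 5.06 ± 1.61 CPM after stress (SD, n = 4) with overlapping ranges. These are shares of counts, and Acot1 has the longer exons: per kb, Acot1 stayed below Acot2 in each of the 8 samples, nearest in stress sample 4 with 0.907 CPM per kb of Acot1 beside 1.41 of Acot2.

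**Figure D3:**
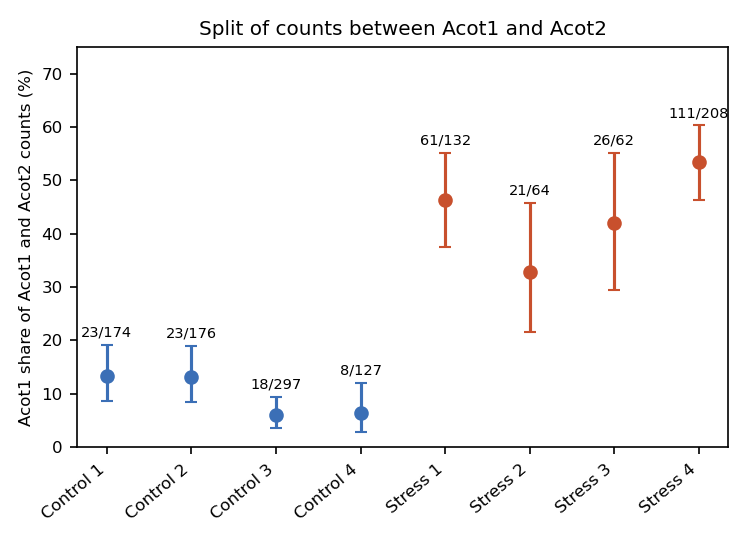
Share of the summed Acot1 and Acot2 counts that fell on Acot1 (y axis, percent) in each of the 8 samples, with the counts above each point and exact Clopper-Pearson 95% intervals as bars. The 4 control samples lie between 6.06% and 13.2% and the 4 stress samples between 32.8% and 53.4%.

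Plin2 (perilipin 2) coats lipid droplets and is made in many cells, macrophages and monocytes among them, when they take up fatty acids. It lies on the minus strand at chr4:86648386-86670060 (GRCm38). In the control samples it was measured at 4.84, 4.63, 4.67 and 6.25 CPM, and in the stress samples at 14.1, 7.52, 10.2 and 13.96 CPM. The groups did not overlap, and stress sample 2 was again the lowest of its group. The mean rose from 5.09 ± 0.773 to 11.5 ± 3.19 CPM (SD, n = 4), which is a log2 fold change of 1.18 ± 0.19 (SE; edgeR, adjusted p = 0.00206). Without control replicate 2 the adjusted p was 0.0119 in edgeR, so that neither Plin2 nor Acot1 was called. On total counts alone, stress samples 2 and 3 lay at 5.46 and 5.197 CPM, below the control range of 5.66 to 8.28 CPM.

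Summed markers of several kinds of blood cell also differed between the groups. The summed level of 10 classical monocyte markers was 549.4 to 662.5 CPM in the control samples and 887.6 to 1400 CPM in the stress samples, and 8 of the 10 passed an adjusted p below 0.05 as higher. Monocyte markers were lowest in stress sample 2 and highest in stress samples 1 and 4, as Plin2 was. Neutrophil markers summed to 191.9 to 378.6 CPM and 589.4 to 872.9 CPM, with 8 of 12 higher (11 were tested), and platelet markers to 1615 to 2381 CPM and 3677 to 4227 CPM, with 10 of 10 higher. Neutrophil markers were, like Acot1, lowest in stress sample 2 and highest in sample 4, but did not keep its order otherwise. Stress sample 3 (634.5 CPM) exceeded sample 1 (621.2 CPM), while Acot1 was higher in sample 1. Among the controls, sample 4 held the most neutrophil markers (378.6 CPM) and the least Acot1 (0.252 CPM). Platelet markers did not keep the order of either gene, since stress sample 2 (3955 CPM) exceeded samples 1 (3757 CPM) and 4 (3677 CPM). Each of these sums gave p = 0.0286 in a two-sided exact permutation test (adjusted over 14 marker lists, 0.0667), and on total counts alone their ranges overlapped. Markers of non-classical monocytes lay in the other direction, at a mean of 190.7 CPM in controls and 144.3 CPM after stress, with 4 of 8 lower. Marker sums are not cell numbers. By flow cytometry the study counted fewer monocytes in blood after restraint, the opposite direction to the classical monocyte sum, and more neutrophils. The part of these cells in the members' changes was not tested.

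Set against the markers in the same sample, the members that had passed a threshold gave unlike ratios. These members were picked by their difference between the same groups, and the ratios were formed after the data were seen. The p-values of the ratios are thus no independent test. Plin2 was 8.32 ± 0.825 CPM per 1000 CPM of monocyte markers in controls and 9.30 ± 1.16 after stress (SD, n = 4), a ratio of 1.12 (p = 0.200 in a two-sided exact permutation test, 0.300 when adjusted over 12 such tests). Against neutrophil markers its ratio of stress to control was 0.944 (exact permutation test, p = 0.571). Against platelet markers the Plin2 ratio was 1.148 (exact permutation test, p = 0.486). Against immature red cell markers it was 1.197 (exact permutation test, p = 0.600). A Plin2 ratio near 1 was thus not particular to the monocyte or neutrophil markers. Acot1 was 0.657 ± 0.309 CPM per 1000 CPM of monocyte markers in controls and 1.82 ± 0.664 after stress (SD, n = 4), a ratio of 2.77 with no overlap of the groups (exact permutation test, p = 0.0286, adjusted 0.114). Its ratios were 2.41 against neutrophil, 3.002 against platelet and 3.27 against red-cell markers, with overlapping groups and exact permutation p-values from 0.0571 to 0.0857. Slc25a20, in contrast, was lower per neutrophil marker (ratio 0.592) and per platelet marker (ratio 0.697) in the stress group, with no overlap in either (exact permutation test, p = 0.0286, adjusted 0.114 for both). None of the 12 tests passed an adjusted p below 0.05.

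**Figure D4:**
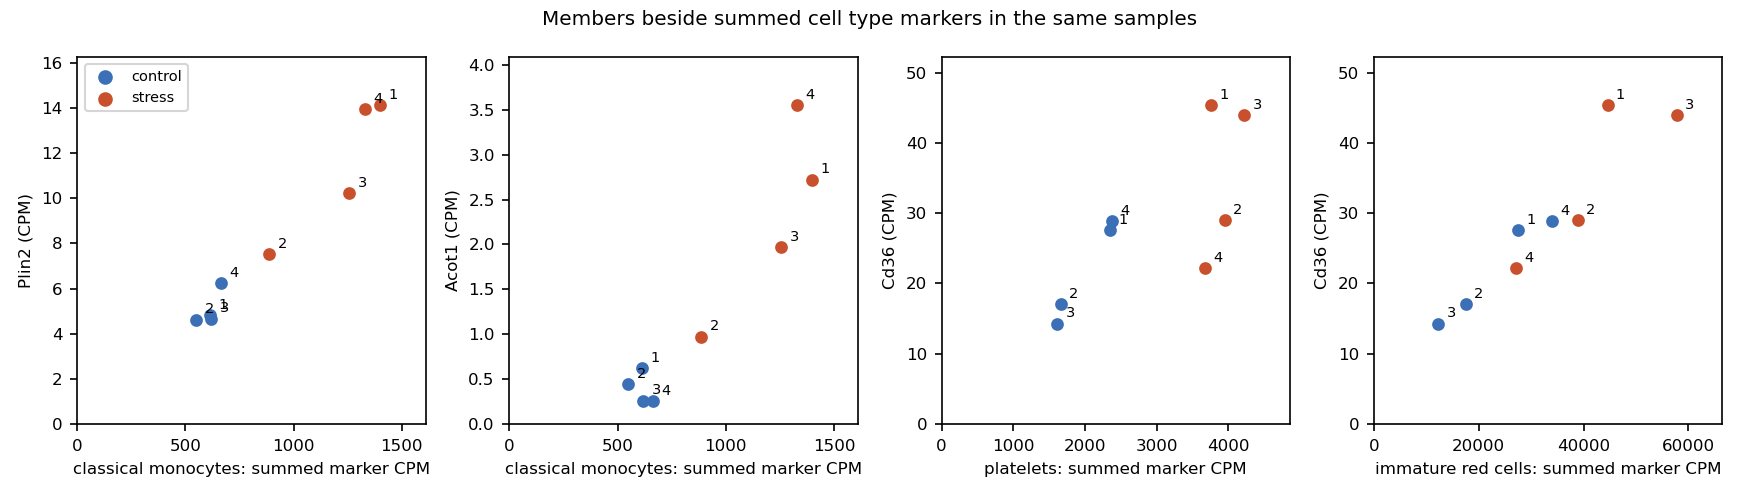
Level of Plin2, Acot1 and Cd36 (y axes, CPM) against the summed CPM of classical monocyte, platelet or immature red cell markers (x axes) in the 4 control (blue) and 4 stress (red) samples, numbered by replicate. Plin2 increases with the monocyte sum across both groups. Acot1 lies at 0.252 to 0.625 CPM in the controls and at 0.974 to 3.55 CPM in the stress samples. Within the control group the Cd36 points keep the order of both the platelet sum and the red cell sum.

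The genes closest in pattern to each called member were found as those with the smallest root mean square difference of centred log2 CPM over the 8 samples. Being picked as the smallest, they lie below the median of all genes by construction. The difference between the groups is part of this distance, and no link to a cell type was tested. For Plin2 these were Emilin2 (0.120), Mgst1 (0.128) and Mpeg1 (0.133), beside a median of 0.677 over all genes tested. Mgst1 is on the monocyte marker list, and Mpeg1 encodes a pore-forming protein of macrophages. For Acot1 they were Mmp8 (0.288), a neutrophil collagenase that is on the neutrophil marker list, Hp (0.317), which encodes haptoglobin, and Msr1 (0.334), a macrophage scavenger receptor, beside a median of 1.11.

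Cd36 encodes a fatty acid transporter and scavenger receptor found on platelets, monocytes, immature red cells and the cells of small vessels. It was measured at 27.6, 17.1, 14.3 and 28.9 CPM in the control samples and at 45.4, 29.0, 43.95 and 22.2 CPM in the stress samples. The groups overlapped, since stress sample 4 lay below control samples 1 and 4. The log2 fold change was 0.68 ± 0.26 (SE; 95% interval 0.10 to 1.25; edgeR, adjusted p = 0.106), which passed no threshold, and leaving out stress replicate 4 took the adjusted p to 0.0481. Control samples 1 and 4, which held more Cd36, also held more platelet markers (2349 and 2381 CPM against 1662 and 1615) and more immature red cell markers (27530 and 34003 CPM against 17503 and 12274). Stress samples 1 and 3 were likewise highest in both Cd36 and red cell markers (44567 and 57729 CPM), and stress sample 4 was lowest in both (27175 CPM). Platelet markers did not follow Cd36 within the stress group, where sample 2 held 3955 CPM of them and sample 1 held 3757 CPM. Within the controls the order of Cd36 was not particular to these markers. Neutrophil markers kept it too (329.8, 285.6, 191.9 and 378.6 CPM in control samples 1 to 4). The TMM factors that scale the libraries ran the opposite way (1.17, 1.47, 1.77 and 1.01). Raw Cd36 counts of the control samples were 883 to 1016. The part of these cells, or of the scaling, in the spread of Cd36 was not tested.

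Angptl4 encodes a secreted inhibitor of lipoprotein lipase that fasting and PPAR ligands induce in fat, muscle and liver. In blood it was scarce, at 8 to 21 counts in a control sample and 7 to 18 in a stress sample. It was measured at 0.353, 0.406, 0.260 and 0.252 CPM in the control samples and at 0.312, 0.557, 0.607 and 0.576 CPM in the stress samples. Of the stress samples, 3 lay above the control range and sample 1 lay within it. The log2 fold change was 0.67 ± 0.42 (SE; 95% interval -0.24 to 1.58; edgeR, adjusted p = 0.301), so a change of this size could not be told from no change at this depth.

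Long-chain fatty acids enter mitochondria as carnitine esters. Cpt1a makes these esters at the outer membrane and is the rate-limiting step, and Slc25a20 carries them across the inner membrane. Slc25a20 was measured at 6.41, 6.06, 6.03 and 6.09 CPM in the control samples and at 8.52, 8.91, 9.03 and 7.97 CPM in the stress samples. The spread within each group was small and the groups did not overlap. The mean rose from 6.15 ± 0.180 to 8.61 ± 0.477 CPM (SD, n = 4), which is a log2 fold change of 0.48 ± 0.12 (SE; edgeR, adjusted p = 0.0159), below the fold threshold of a call, and on total counts alone it was -0.32. The adjusted p was above 0.05 without control replicate 2 (0.0610) or control replicate 3 (0.0596).

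Cpt1a was measured at 35.6, 38.8, 32.1 and 39.8 CPM in the control samples and at 58.7, 36.6, 32.7 and 51.1 CPM in the stress samples. Stress samples 1 and 4 were above all controls and samples 2 and 3 lay within the control range, so the groups overlapped. The log2 fold change was 0.30 ± 0.17 (SE; 95% interval -0.06 to 0.65; edgeR, adjusted p = 0.244), and the interval leaves out a doubling, which is a log2 fold change of 1. Samples 1 and 4 were also those with the most Plin2 and Acot1 in the stress group.

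Acadm and Acadvl encode the medium-chain and very-long-chain acyl-CoA dehydrogenases, which start each round of mitochondrial oxidation. Acadm was measured at 11.98, 11.9, 12.4 and 11.5 CPM in the control samples and at 13.6, 13.9, 15.4 and 12.4 CPM in the stress samples. Control sample 3 and stress sample 4 were equal to 3 digits, although no control sample exceeded a stress sample. Its log2 fold change was 0.20 ± 0.10 (SE; 95% interval -0.02 to 0.43; edgeR, adjusted p = 0.193). Acadvl was measured at 11.7, 13.6, 14.7 and 12.8 CPM in the control samples and at 14.4, 16.6, 17.8 and 13.2 CPM in the stress samples, with overlapping groups and a log2 fold change of 0.22 ± 0.12 (SE; 95% interval -0.04 to 0.48; edgeR, adjusted p = 0.231). Both intervals leave out a doubling. Of the exon bases of Acadvl, 42.9% overlap exons of Dvl2 on the opposite strand, and whether reads were counted by strand is not given in the sources used here, so reads of these genes may not be separated.

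Pdk4 encodes the kinase that shuts off pyruvate dehydrogenase in fasting and so spares glucose. It had 2, 0, 0 and 0 counts in the control samples and 0, 4, 0 and 0 in the stress samples, and it was not tested. A floor of 3 counts corresponds to 0.0434 to 0.0946 CPM in the control samples and to 0.0961 to 0.228 CPM in the stress samples. Levels of Pdk4 below this floor are uncertain. No fold is given, because the counts were 0 in most samples and near this floor in the others.

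The receptors themselves were unevenly present in blood, and they are named here for their role. Ppara, the receptor of the hepatic fasting response, had at most 2 counts in any sample and 5 in all. Ppard, the widely made receptor, lay at 5.60, 6.87, 6.59 and 6.40 CPM in the control samples and at 7.32, 8.30, 4.71 and 9.25 CPM in the stress samples (log2 fold change 0.23 ± 0.18, SE; edgeR, adjusted p = 0.390). Pparg, the receptor of fat cells and macrophages, had 6 to 45 counts per sample (log2 fold change -0.09 ± 0.48, SE; edgeR, adjusted p = 0.921). Fgf21, the hepatic fasting hormone, had 0 counts in all 8 samples.

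Promoters were searched for the element that PPAR and RXR bind as a pair, written AGGTCANAGGTCA, on either strand and with up to 2 of its 12 fixed letters changed. The windows ran from 250 bases before to 50 bases after each gene's start (RefSeq, GRCm38.p6), and 9 of the 10 members had one; Angptl4 did not. A match was found in 3 of the 9, against 3.86% of all 32851 windows. All 3 matches are shown: Plin2 and Slc25a20 passed a threshold, Cd36 did not, and Acot1, which also passed, had no match. The members were chosen as genes that PPAR receptors drive, so their share of matches is no independent test. Capitals mark letters that fit the element in either reading direction.
Plin2 (chr4:86670272-86670284, from -225): gGACCcCTGACCT
Slc25a20 (chr9:108662142-108662154, from 7): AGGTgAAAGGTCg
Cd36 (chr5:17835947-17835959, from -63): TGgCCTCTGACtT
Positions in parentheses count from the RefSeq start used for the window. For Cd36 this start lies inside the gene as GENCODE places it (chr5:17781690-17888801, minus strand). The sequence before the outermost GENCODE start of Cd36 was not searched. The shorter half-site AGGTCA, which can lie inside the element, was in 5 of the 9 windows and in 16.3% of all windows. The 250 bases before the start are given for both called members, Plin2 on the minus strand (chr4:86670060-86670309) with the match in capitals and Acot1 on the plus strand (chr12:84009252-84009501), which held neither the element nor the half-site.
Plin2: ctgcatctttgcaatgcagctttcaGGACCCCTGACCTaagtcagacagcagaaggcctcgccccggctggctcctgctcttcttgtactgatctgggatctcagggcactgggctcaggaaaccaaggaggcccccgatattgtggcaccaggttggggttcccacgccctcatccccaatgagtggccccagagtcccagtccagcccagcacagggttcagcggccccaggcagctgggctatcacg
Acot1: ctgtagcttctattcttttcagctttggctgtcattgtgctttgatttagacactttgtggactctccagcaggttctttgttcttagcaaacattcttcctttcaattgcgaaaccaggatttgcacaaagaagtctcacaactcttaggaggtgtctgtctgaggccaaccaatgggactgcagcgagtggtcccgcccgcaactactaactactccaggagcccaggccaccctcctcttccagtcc
A match to letters is no measurement of binding, and sites farther from the start were not searched.

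The other genes of the pathway were read from 11 lists holding 149 genes, of which 119 had enough counts to test. At an adjusted p below 0.05, 12 were higher and 4 were lower, against 10.4% and 3.69% of all genes, and 1 was called higher. The log2 fold change was above 0 in 55 and below 0 in 64, with a median of -0.02, close to that of all genes. These lists leave out the members, so Slc25a20 does not count among the carnitine shuttle genes. Of the other shuttle genes 0 of 5 passed (median -0.14), and of the mitochondrial oxidation genes 0 of 16 (median 0.02), in edgeR, DESeq2 and limma-voom alike. At an unadjusted p below 0.05, edgeR gave 1 shuttle gene higher, and 1 oxidation gene higher and 1 lower.

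Lipid droplet genes held the gene that was called. Dgat2, which makes triglyceride for droplets, was measured at 1.55, 1.32, 0.780 and 2.05 CPM in the control samples and at 5.26, 4.50, 4.40 and 4.77 CPM in the stress samples. The groups did not overlap, and the mean rose from 1.42 ± 0.527 to 4.73 ± 0.386 CPM (SD, n = 4), which is a log2 fold change of 1.77 ± 0.25 (SE; edgeR, adjusted p = 0.00109) and 1.06 on total counts alone (adjusted p = 0.0227, edgeR). G0s2, an inhibitor of triglyceride lipolysis, rose by 1.01 (edgeR, adjusted p = 0.0260) and Abhd5, the activator of the same lipase, by 0.69 (edgeR, adjusted p = 0.0454) on the log2 scale. Neither passed on total counts alone (0.22 and -0.067), and their adjusted p went above 0.05 in 3 and 5 of the 8 fits that left out a sample, reaching 0.0887 for G0s2 without control replicate 3 and 0.141 for Abhd5 without control replicate 2. Of the 10 tested genes on this list, 3 were higher and 0 lower, with a median of 0.47, and the fat cell perilipin Plin1 had 2 counts in all 8 samples.

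Of 14 tested genes of uptake, binding and activation, 3 were higher and 0 lower (median 0.61). Slc27a4, a fatty acid transport protein, rose by 0.61 on the log2 scale (edgeR, adjusted p = 0.00891; -0.17 on total counts alone), Slc27a2, a relative with acyl-CoA synthetase activity, by 0.92 (edgeR, adjusted p = 0.0110), and Dbi, the acyl-CoA binding protein, by 0.78 (edgeR, adjusted p = 0.0295). On total counts alone Slc27a2 was at 0.15 and Dbi at -0.089. Dbi was above an adjusted p of 0.05 in 4 of the 8 fits that left out a sample (up to 0.0948 without control replicate 2, edgeR). Among 5 other thioesterases Acot7 rose by 0.89 (edgeR, adjusted p = 0.00455), from 8.05 ± 2.07 to 14.9 ± 1.81 CPM (SD, n = 4), and the median was -0.02, while on total counts alone Acot7 was at 0.12 (edgeR, adjusted p = 0.769). Among 12 peroxisomal genes (median -0.08), Scp2, a sterol and fatty acid carrier, rose by 0.48 (edgeR, adjusted p = 0.0151; -0.36 on total counts alone) and Abcd2, a transporter of very-long-chain acyl-CoA, by 1.18 (edgeR, adjusted p = 0.0124), although the Abcd2 level of stress sample 2 (2.92 CPM) lay within the control range of 2.23 to 2.93 CPM and its change on total counts alone was 0.47 (edgeR, adjusted p = 0.257). Without control replicate 3, the adjusted p of Scp2 was 0.0541 in edgeR. Of 3 genes of ketone body use, 0 passed an adjusted or unadjusted p below 0.05 in edgeR, DESeq2 or limma-voom (median -0.06).

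Genes of fatty acid synthesis passed in both directions, with 1 higher and 2 lower of 12 tested (median -0.23). Acaca, which makes malonyl-CoA and so feeds synthesis, was measured at 8.10 to 9.90 CPM in the control samples and 4.69 to 6.47 CPM in the stress samples. It fell by 0.72 on the log2 scale (edgeR, adjusted p = 0.00508). Scd1, the stearoyl-CoA desaturase, fell by 0.48 (edgeR, adjusted p = 0.0414), and Fads2, a desaturase of polyunsaturated fatty acids, rose by 0.86 (edgeR, adjusted p = 0.0214). Scd1 lost its call with the replicate block (adjusted p = 0.0807, edgeR) and in 5 of the 8 fits that left out a sample, and Fads2 lost it on total counts alone (0.07) and in 3 of the 8 (up to an adjusted p of 0.0780 without control replicate 3, edgeR). B cell markers were also lower in the stress group, at 1099 to 1349 CPM in the control samples and 749.8 to 998.8 CPM in the stress samples (p = 0.0286 in a two-sided exact permutation test, adjusted 0.0667), and their part in these falls was not tested.

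Among the remaining lists 1 or 2 genes passed the threshold. Sirt3, a mitochondrial deacetylase, rose by 0.51 (edgeR, adjusted p = 0.0447; -0.26 on total counts alone) among 17 receptor and coactivator genes (median -0.09). Pdpr, a regulator of pyruvate dehydrogenase phosphatase, fell by 0.43 (edgeR, adjusted p = 0.0468) among 13 genes of that complex (median -0.04). Of 12 uncoupling and FOXO-linked genes (median -0.08), Ucp2 rose by 1.09 (edgeR, adjusted p = 0.0436) and Foxo1, the transcription factor that insulin restrains in feeding, fell by 0.38 (edgeR, adjusted p = 0.0484). Ucp2, a mitochondrial carrier, was abundant and variable, at 1377 ± 616 CPM in controls and 2940 ± 679 CPM after stress (SD, n = 4), with overlapping groups. None of these 4 genes passed an adjusted p below 0.05 with the replicate block (edgeR, adjusted p = 0.0765 for Sirt3, 0.0654 for Pdpr, 0.0925 for Ucp2 and 0.0981 for Foxo1). Leaving out 1 sample at a time, Pdpr was above an adjusted p of 0.05 in 7 of the 8 fits. The other 3 genes were above it in 6 of the 8. Adjusted p-values reached 0.118 for Pdpr and 0.138 for Sirt3 without control replicate 3 (edgeR). Without control replicate 2 they reached 0.136 for Ucp2 and 0.148 for Foxo1 (edgeR). On total counts alone Ucp2 was at 0.36 (edgeR, adjusted p = 0.117). Foxo1 was also just above 0.05 with RLE size factors, another library scaling (edgeR, adjusted p = 0.0504), and without a count filter (edgeR, adjusted p = 0.0546).

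**Figure D5:**
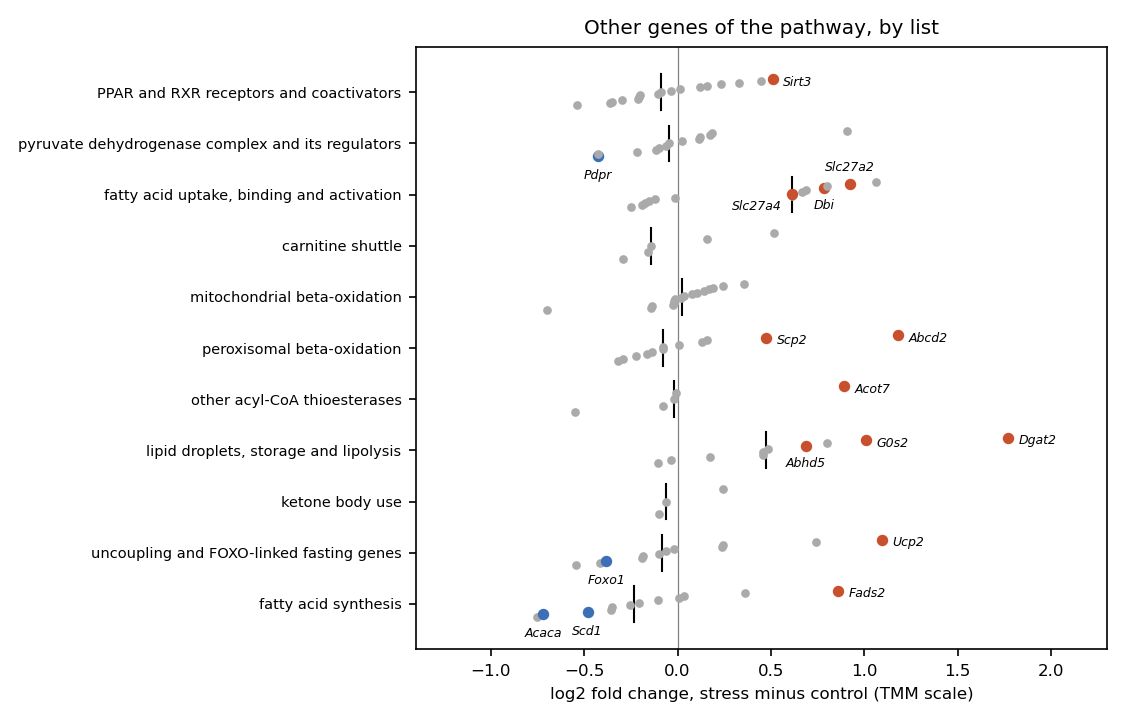
Log2 fold change (x axis, stress minus control, TMM scale) of the 119 tested pathway genes on 11 lists, with a black bar at each list's median, and genes at an adjusted p below 0.05 in red (higher) or blue (lower) with their names. Most genes lie near 0, Dgat2 stands farthest to the right at 1.77, and no gene of mitochondrial beta-oxidation or the carnitine shuttle is coloured.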

How the data were processed

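The authors deposited whole-number read counts per gene symbol, 1 column for each of the 8 samples, without normalization. The submitters' processing notes name HISAT2, featureCounts and mm10, and versions, annotation and strand setting are not given in the sources used here. The 10 members, the 11 pathway lists and the 14 marker lists were chosen with earlier results of these data known. The 11718 genes (of 21878) that reached 10 counts in 4 or more samples were fitted with edgeR 4.0.16 in R 4.3.3 (TMM, quasi-likelihood test, robust), and p-values were adjusted over all of them by Benjamini-Hochberg, after the script was tested on simulated data. A call needed a log2 fold change beyond 1 in size and an adjusted p below 0.01. Standard errors were derived from the F statistic. Named genes were all members, from each pathway list the called genes or else up to 2 genes with the smallest p at an adjusted p below 0.05, and the 3 nearest genes of each called member. The receptors, Fgf21, Plin1, Dbi, G0s2, Abhd5 and Scd1 are named outside this rule, chosen after their values were seen. The Acot1 share and members per marker sum were also added after seeing the data. Some genes of the lists are not reported here. Marker sums and ratios were compared by exact permutation tests over 70 assignments, whose p cannot go below 0.0286. For distances, 0.25 was added to CPM before log2. Alternatives were DESeq2 1.42.0, limma-voom (limma 3.58.1), other scalings and filters, a fit with replicate as a block, and fits that left out 1 sample each. No pair of samples had identical counts. Coordinates are from GENCODE M21 on GRCm38. Counting limits and intervals cover counting error only.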

Additional observations from a re-analysis of the deposited data

Results flagged for a closer look

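Dixon's test for a lone extreme sample was applied to 80 groups of 4 samples, and 5 passed its 95% critical value. Chance alone flags about 1 in 20 such groups. Slc25a20 was highest in control sample 1, at 6.41 CPM against 6.09 CPM in the nearest control. Plin2 was highest in control sample 4, at 6.25 CPM against 4.84 CPM, still below the lowest stress sample at 7.52 CPM. Summed neutrophil markers reached 872.9 CPM in stress sample 4 against 634.5 CPM in the nearest stress sample, and Acot1 was also highest in that sample. In stress sample 3, the library with the largest haemoglobin share (75.5%) and the smallest TMM factor (0.507), summed NK cell markers were 118.6 CPM against 57.6 CPM and skeletal muscle markers 2.13 CPM against 1.21 CPM.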

How the results depend on the processing

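On total counts alone, members called higher went from 2 to 1, members higher at an adjusted p below 0.05 from 3 to 1 and lower from 0 to 1. Pathway genes called higher went from 1 to 0 and called lower from 0 to 6, and at an adjusted p below 0.05 higher from 12 to 1 and lower from 4 to 57. Over all 11718 genes on that scale, 14 were called higher and 728 lower, and the median log2 fold change was -0.82. The counts of members and pathway genes are read against this general shift. The share of all genes at an adjusted p below 0.05 on that scale is not reported here. Marker lists higher at an unadjusted p below 0.05 went from 5 to 0 and lower from 1 to 4. Log2 fold changes turned to -0.42 for Cpt1a, -0.11 for Angptl4, -0.32 for Slc25a20, -0.62 for Acadm, -0.62 for Acadvl, -0.10 for Cd36, -0.26 for Sirt3, -0.17 for Slc27a4, -0.36 for Scp2, -0.089 for Dbi and -0.067 for Abhd5. Which scale is closer to the cells was not tested. The other scalings and tools turned no sign of a member. DESeq2 called 5 pathway genes higher and a fit without a count filter called 2. Requiring 10 counts in every sample removed Acot1 and Angptl4 from testing and left 1 member called. Replicate numbers did not pair the samples (correlation of deviations 0.0718, 0.0256, -0.0600 and -0.195; 1 of 4 controls correlated best with its own number). With the replicate as a block, 1 pathway gene was lower instead of 4, and Acot1 (adjusted p = 0.00572), Plin2 (0.00185) and Slc25a20 (0.0451) stayed past their thresholds in edgeR.

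Leaving out 1 sample at a time, members called higher ranged from 0 (without control replicate 2) to 2, and higher at an adjusted p below 0.05 from 2 to 4. Pathway genes called higher ranged from 1 to 4, higher from 5 to 19 and lower from 1 to 6. Marker lists higher ranged from 2 to 5 and lower from 0 to 2. The difference in the Acot1 share ranged from 30.7 to 37.5 percentage points. Over all genes, 198 were called higher and 2 lower, against 307 and 12 with DESeq2, 14 and 728 on total counts, and, leaving out control replicate 2, 3 or 4, 76 and 1, 95 and 1, and 340 and 5. Low counts limit Acot1, Angptl4 and Pdk4.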

Other observations

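Markers of cells from outside the blood were read as well. Summed fat cell markers were 1.59 to 4.45 CPM in the control samples and 3.61 to 7.82 CPM in the stress samples, with Lep and Adrb3 at 0 in all 8 samples, and 1 of 8 markers had enough counts to test. Of 8 liver cell markers only Hp was tested, and it is also made in neutrophils, while Apoc3, Serpina1a and Fgb were at 0. The sum of these 8 was 14.5 to 26.5 CPM in the control samples and 34.9 to 76.7 CPM in the stress samples (two-sided exact permutation test, p = 0.0286, adjusted 0.0667). Keratinocyte markers stayed at or below 0.607 CPM, with Krt1, Krtdap and Lor at 0, and skeletal muscle markers at or below 2.13 CPM with Myh4 at 0. Endothelial markers were 229.8 to 336.6 CPM in the control samples and 410.4 to 574.5 CPM in the stress samples (exact permutation test, p = 0.0286, adjusted 0.0667), and 3 of 6 passed an adjusted p below 0.05 as higher. Some of these, such as Vwf and Pecam1, are also made in platelets.

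Among blood cells, T cell markers were 535.1 to 578.5 CPM in the control samples and 481.1 to 610.2 CPM in the stress samples (exact permutation test, p = 0.914), and NK cell markers were 56.5 to 101.3 CPM and 49.3 to 118.6 CPM (exact permutation test, p = 0.8286). These sums are not cell numbers, and the study's flow cytometry found fewer T cells and NK cells in blood after restraint. Eosinophil and basophil markers were 8.21 to 10.3 CPM and 7.13 to 8.86 CPM (exact permutation test, p = 0.0857). Non-classical monocyte markers were 175.7 to 214.4 CPM in the control samples and 123.6 to 177.8 CPM in the stress samples (exact permutation test, p = 0.0571), and 4 of 8 passed an adjusted p below 0.05 as lower, the opposite direction to the classical monocyte markers and to Plin2. Immature red cell markers were 12274 to 34003 CPM and 27175 to 57729 CPM (exact permutation test, p = 0.0857).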
